A study of Mus musculus with 39 samples.

Results

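The lungs of 4L mice, which are homozygous for a missense mutation (V394L/V394L) and serve as a model of Gaucher disease, were set against the lungs of wild-type (WT) mice. The arrays were chosen by their labels, as the 6 lung arrays of 4L mice at 12, 18 and 28 weeks (2 at each age) and the 4 lung arrays of WT mice at 28 weeks, which makes 10 of the 39 arrays of the series. By the study's methods the RNA on each array was pooled from 3 mice. By the methods, the 4L mice were a mixture of C57BL/6J and a further inbred strain, whereas the WT mice held both of these and FVB, so strain and mutation cannot be told apart between them. Only the 28 week arrays were matched to WT for age. For comparison, the 6 lung arrays of 9V/null mice (D409V/null) at the same 3 ages were used. The 9V/null mice had the strain mixture of the WT mice, so strain and allele cannot be told apart between 4L and 9V/null either. The genotypes were taken from the labels alone.

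Gaucher disease is a lysosomal storage disease in which glucosylceramide, a membrane glycosphingolipid, is not degraded. The lipid builds up above all in macrophages, which then become the enlarged storage cells known as Gaucher cells. Lung holds resident alveolar macrophages, a gas exchange surface of type I and type II epithelial cells, and airways lined by club, goblet and ciliated cells.

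Expression was measured on Affymetrix whole-genome mouse arrays as a linear signal intensity for each probe set, scaled by the authors so that every array had the same trimmed mean. Signals are given here as deposited. For folds and tests, log2 was taken after raising signals to a floor of 16, and a log2 fold of 1 is a doubling. A probe set was called when its adjusted p did not exceed 0.01 and its fold reached 1.8, and the adjusted p-values are those of limma with Benjamini-Hochberg adjustment. Sftpc, the surfactant protein C gene of type II epithelium, read 46367 to 57177 in the WT arrays and 110002 to 181028 in the 4L arrays, and Scgb1a1, the main secretory product of club cells, read 68648 to 76594 and 126813 to 208060, so the markers of lung were present on all 10 arrays. In bulk RNA a change in the number of cells of a type and a change in the RNA of each cell cannot be told apart.

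Several technical readings moved with the groups. The bacterial spike-in controls, which are added in fixed amounts, averaged 12.45 to 12.58 on the log2 scale in WT and 12.86 to 13.68 in 4L arrays, a mean difference of 0.67, while 4L and 9V/null arrays differed by 0.03. The median signal was 349.1 to 427.7 in WT and 279.7 to 369 in 4L arrays. Replicate arrays of 4L mice correlated at a Spearman value of 0.908 to 0.953, against 0.968 for WT. The labels give no sex, and the Y-linked gene Eif2s3y read 532 to 1896 in WT and 18 to 1580 in 4L arrays. The first 28 week array of 4L mice stood apart in liver transcripts. Alb, the albumin gene of hepatocytes, read 40507 there, 662 to 6392 in the other 5 4L arrays and 6752 to 18343 in WT. The part of these readings in the results below was not tested.

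Of 45037 probe sets, 1732 were called higher (3.85%) and 2277 lower (5.06%) in 4L than in WT lung. With 1 probe set for each gene, 923 of 18193 genes were higher (5.07%) and 809 lower (4.45%). The 6 4L arrays did not overlap the 4 WT arrays in 1566 of these 1732 genes, where 2500 of all genes (13.7%) lay above and 1957 (10.8%) below without overlap. The fold had one sign at 12, 18 and 28 weeks in 1722 of the called genes. Calling on the mean of these same ages favours this, and 216 of the called genes were called at each age. The balance of directions depended on the scaling. The higher share of the called probe sets was 43.2% as deposited, 66.5% with the arrays centred on their medians, which moved the median over all probe sets from a log2 fold of -0.04 to 0.16, and 2.22% with the arrays scaled to the spike-ins, which moved it to -0.71. All directions below are those of the deposited scaling, and gene groups are set beside the median of all genes, a log2 fold of 0.07. At 28 weeks alone 2439 probe sets were called (5.42%), but 193 without the first and 3079 without the second 28 week array of 4L mice. Of the 1290 genes called at 28 weeks (7.09% of all), 961 (74.5%) were also called over the 3 ages.

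Of 53 gene lists, those with the most called members were the ribosomal proteins (10 higher and 1 lower of 21), antioxidant and glutathione genes (9 higher of 29), club and goblet cell markers (8 higher of 18), MHC class I genes (7 higher and 2 lower of 17), general macrophage markers (7 higher of 20), oxidative phosphorylation (7 higher of 30) and RNA splicing (7 lower of 32). Among all genes 9.52% were called. Higher members exceeded lower ones in the first 6 of these groups, and splicing factors had lower members alone. With spike-in scaling the higher and lower members were 0 and 3 for the ribosome, 1 and 0 for antioxidant genes, 2 and 0 for club and goblet cells, 0 and 2 for MHC class I, 0 and 4 for macrophages, 0 and 0 for oxidative phosphorylation and 0 and 15 for splicing.

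**Figure D1:**
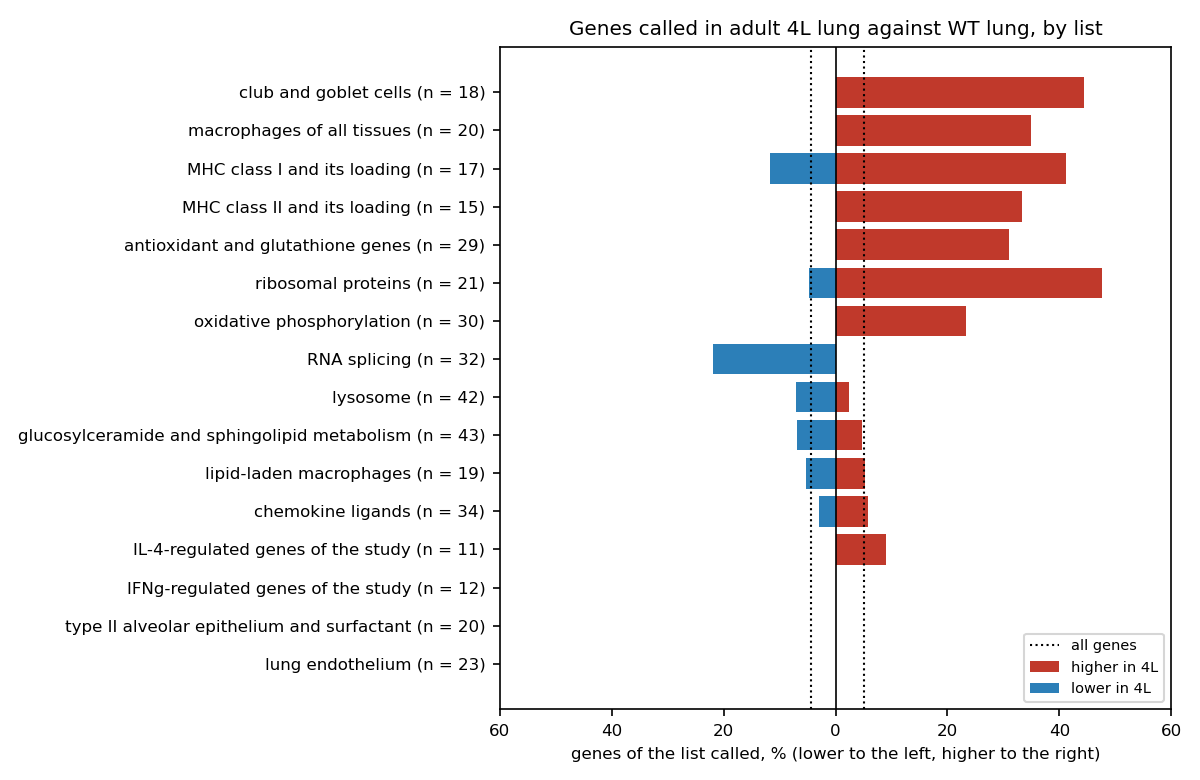
Percent of the measured members (n) of each gene list called higher (red, to the right) and lower (blue, to the left) in adult 4L lung than in WT lung, on the deposited scaling, with dotted lines at the shares of all genes (5.07% and 4.45%). Ribosomal, airway secretory and MHC class I lists reach farthest to the right, which only the airway list keeps in part with spike-in scaling, and RNA splicing farthest to the left.

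Among the genes with the highest folds, Rec8, a meiotic cohesin subunit, stood first. It read 16, 39, 30 and 25 in the 4 WT arrays and 1054, 737, 549, 587, 1084 and 563 in the 4L arrays in order of age, a log2 fold of 4.79 (SE, the standard error, 0.64, adjusted p = 1.7e-05). Every 4L array was thus far above every WT array, and 9V/null arrays read 13 to 53. Spink5, an epithelial serine protease inhibitor, read 1 to 9 in WT, 137 to 312 in 4L and 2 to 31 in 9V/null arrays. All 4 WT values lay under the floor, so its log2 fold of 3.54 (SE 0.41, adjusted p = 3.6e-06) depends on the floor. Both genes were therefore high in 4L mice and near background in the other groups.

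Other genes of this rank were raised in both mutant lines. Gja5 encodes connexin 40 of arterial endothelium, and it read 14 to 32 in WT, 172 to 676 in 4L and 265 to 726 in 9V/null arrays, with a log2 fold of 4.18 (SE 0.34, adjusted p = 3.7e-08) in 4L. It was the one called member of 20 arterial endothelium genes, whose median fold was -0.37. A4galt is the synthase of globotriaosylceramide, a glycosphingolipid made from lactosylceramide. It read 67, 51, 274 and 32 in WT and 1105, 1434, 645, 507, 751 and 738 in 4L arrays, a log2 fold of 3.45 (SE 0.37, adjusted p = 1.4e-06), and 614 to 1395 in 9V/null arrays. Npy, which encodes neuropeptide Y, read 56 to 328 in WT, 1068 to 3001 in 4L and 605 to 3019 in 9V/null arrays. Klk1, a tissue kallikrein, read 6 to 47 in WT and 121 to 401 in 4L arrays, and of its 3 other probe sets 1 was called higher and 1 had a log2 fold of -0.48. Lpcat4, a lysophospholipid acyltransferase, read 29 to 45 in WT, 115 in the first 28 week array of 4L mice and 735 to 1120 in the other 5. The remaining genes of the 12 highest were Sytl1, 5830444B04Rik, Kcnk12, Dpysl4 and Adi1, at log2 folds of 3.07 to 3.64. Of these, Sytl1 and Dpysl4 were also called in 9V/null lung, and another Dpysl4 probe set had a log2 fold of -1.09.

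The lowest fold was that of Ang3, a mouse angiogenin of the ribonuclease A family. It read 2750, 2713, 2644 and 2497 in WT and 34, 19, 12, 47, 60 and 151 in 4L arrays, and fell by 6.03 on the log2 scale (SE 0.49, adjusted p = 3.7e-08). With 301 to 1780 in 9V/null arrays, the 3 groups did not overlap. Ear3, an eosinophil-associated ribonuclease of the same superfamily, read 24098 to 27824 in WT, 1895 to 4104 in 4L and 25929 to 39170 in 9V/null arrays. It fell by 3.10 on the log2 scale (SE 0.24, adjusted p = 2.4e-08), and its probe set is of a type that can also bind relatives. These 2 ribonucleases were low on all 6 4L arrays.

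Gdpd3, a lysophospholipase D that acts on lysophospholipids, read 8391 to 9206 in WT, 118 to 522 in 4L and 12435 to 20773 in 9V/null arrays, and fell by 4.95 on the log2 scale (SE 0.29, adjusted p = 6.7e-10). Ifi202b and Ifi204 are interferon-inducible members of the p200 family. Ifi202b read 333 to 882 in WT and 5 to 94 in 4L arrays, 3 of them under the floor, and fell by 4.21 on the log2 scale (SE 0.53, adjusted p = 8.5e-06). Ifi204 read 865 to 1447 in WT and 59 to 168 in 4L arrays, and fell by 3.48 on the log2 scale (SE 0.35, adjusted p = 7.4e-07). Psca, a surface glycoprotein of epithelia, read 157 to 442 in WT and 16 to 62 in 4L arrays. Il17b, a cytokine of the interleukin 17 family, read 439 to 755 in WT, 274 and 210 in 4L mice at 12 weeks, 59 and 35 at 18 weeks and 22 and 69 at 28 weeks. Its 4L arrays thus lay below WT at each age and highest at 12 weeks, and its log2 fold between 28 and 12 weeks, -2.62, was not called. The other genes of the 12 lowest were Tmem87a, Clec12b, 3300002P13Rik, Snhg14 and Smlr1, which fell by 2.65 to 3.08 on the log2 scale.

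To find what set 4L lung apart from 9V/null lung, the lines were compared directly, a difference in which no WT array enters. Of all genes, 50 were called higher (0.275%) and 97 lower (0.533%) in 4L than in 9V/null lung. Most of these were not called in 4L lung against WT, as 89 of the 147 were not. Of the 97 lower genes, 44 were called higher in 9V/null than in WT lung and not called in 4L lung. Among all genes 4.12% were called higher in 9V/null than in WT lung. The 97 were chosen on these same 9V/null arrays, which favours such calls. The other 58 of the 147 genes were called against both WT and 9V/null lung, 26 higher in both, 28 lower in both and 4 in opposite directions. Of the 54 with one direction, 43 had no overlap between the 6 4L arrays and the 10 others, where 161 of all genes lay above and 64 below without overlap.

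Rec8, Spink5, Ang3, Gdpd3, Ifi202b, Ear3, Psca and Il17b belonged to these 54 genes. Rec8 was 4.75 (SE 0.57, adjusted p = 1.6e-05) and Spink5 3.23 (SE 0.37, adjusted p = 7.5e-06) higher on the log2 scale than in 9V/null lung, and Gdpd3 fell by 5.71 (SE 0.26, adjusted p = 2.5e-12). Adi1, an enzyme of methionine salvage, read 566 to 679 in WT, 4128 to 7065 in 4L and 122 to 462 in 9V/null arrays. Its log2 fold was 3.07 (SE 0.49, adjusted p = 0.00011) against WT and 4.25 (SE 0.44, adjusted p = 1.6e-06) against 9V/null lung, but another of its probe sets was called the other way at -1.06. Gp2, a receptor for bacterial pili on epithelial cells that take up antigen, read 163 to 231 in WT, 1341 to 1798 in 4L and 41 to 216 in 9V/null arrays. Pcdhb9, a protocadherin, read 214 to 421 in WT, 1635 to 2873 in 4L and 119 to 312 in 9V/null arrays. The 4L arrays of both genes lay above all others.

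Further members of this group were picked after their values were seen. Cftr, the epithelial chloride channel of cystic fibrosis, read 1760, 1585, 1509 and 1826 in WT, 492, 296, 412, 330, 256 and 250 in 4L and 1076 to 1535 in 9V/null arrays. It fell by 2.34 on the log2 scale against WT (SE 0.42, adjusted p = 0.00032) and by 1.91 against 9V/null lung (SE 0.37, adjusted p = 0.0055). Pik3ap1, an adaptor between receptors of B cells and phosphoinositide 3-kinase, read 4669 to 5066 in WT, 606 to 1198 in 4L and 3754 to 5937 in 9V/null arrays, and fell by 2.30 on the log2 scale against each, while another of its probe sets stood at 1.02. Adh7, a retinol and alcohol dehydrogenase of epithelia, read 241 to 483 in WT, 718 to 1520 in 4L and 165 to 398 in 9V/null arrays. None of the 3 overlapped between 4L and the other groups.

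**Figure D2:**
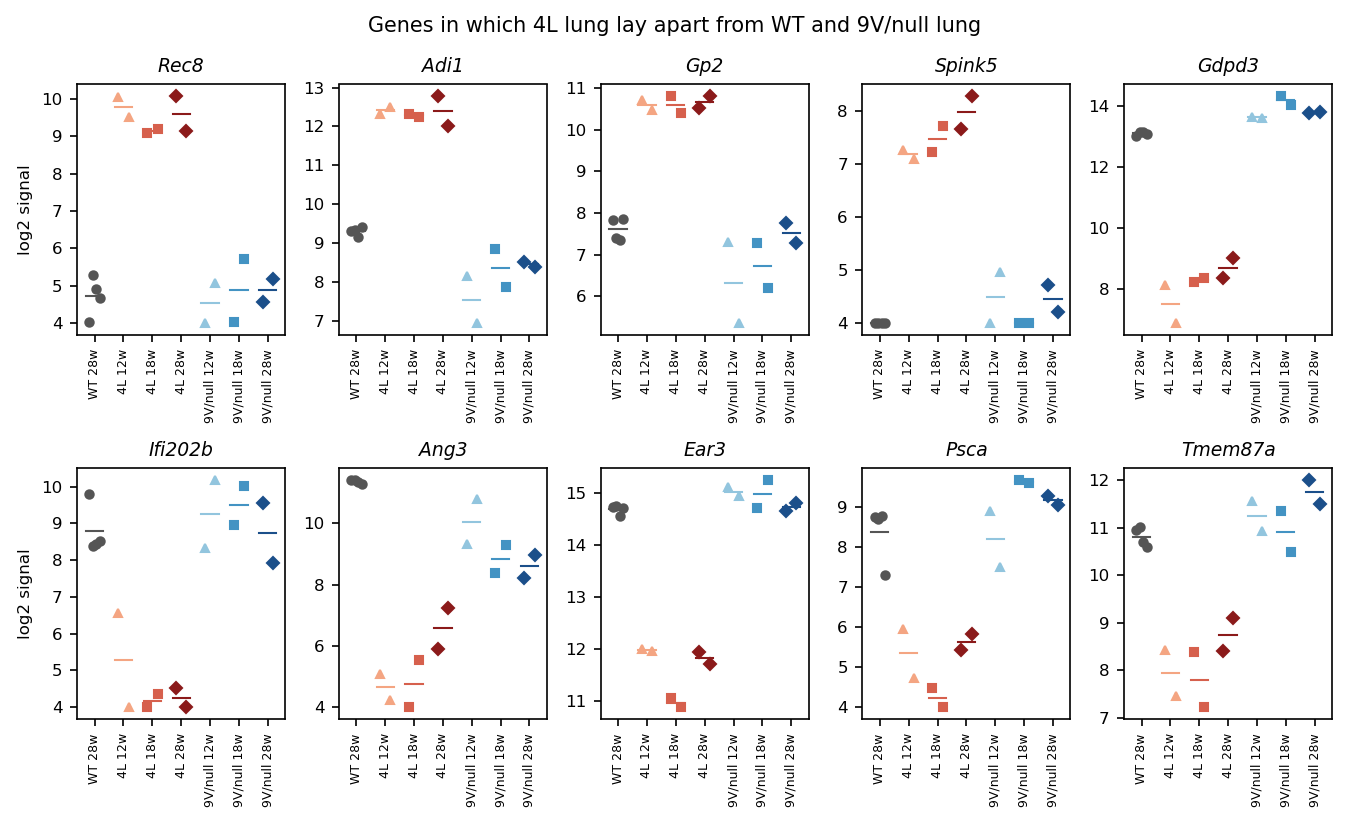
Signal (log2, floored at 16) of genes called in 4L lung against both WT and 9V/null lung. Each point is an array of RNA pooled from 3 mice and each line the mean of a genotype at one age, and the 4L points lie apart from both other groups.

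Some of the genes that differed between the lines lay side by side in the genome. Of 145 with a place in the reference order, 32 had another within 5 measured genes on either side, in 13 runs. That is 22.1%, where 1305 of all 18145 placed genes (7.19%) had such a called gene nearby, and it is given as a description with no test. One run held Ccl9, Ccl6, Ccl3, Wfdc17, Wfdc18 and Wfdc21, all lower in 4L mice, and others held Ifi204 and Ifi202b, Cxcl5, Cxcl1 and Cxcl2, H2-Eb1 and H2-Ea, and Ch25h and Lipa.

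The macrophage is the storage cell of Gaucher disease, and the markers carried by macrophages of all tissues were partly raised. Of 20 such markers, 7 were called higher and 0 lower, with a median log2 fold of 0.74. C1qb and C1qc encode complement C1q chains made by macrophages. C1qb read 1921, 1553, 1781 and 2198 in WT and 8402, 5959, 3479, 4030, 4061 and 4745 in 4L arrays, a log2 fold of 1.40 (SE 0.18, adjusted p = 8.3e-06). C1qc had a log2 fold of 0.99. Cd68, a lysosomal membrane glycoprotein used to stain macrophages, read 2861 to 3485 in WT, 4374 to 9258 in 4L and 8884 to 28416 in 9V/null arrays. Its log2 fold was 0.96 against WT (SE 0.21, adjusted p = 0.0017), and it fell by 1.49 against 9V/null lung (SE 0.18, adjusted p = 2.4e-05). The 3 groups were thus stepped, though the highest 4L array lay above the lowest 9V/null array.

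The other called markers were Aif1, Fcer1g, Cd14 and Lyz2, with log2 folds of 1.01 to 1.38. In a separate list of 18 alveolar macrophage genes 1 was called higher and 1 lower. The higher one was Marco, a scavenger receptor, which read 846 to 1712 in WT and 1611 to 4311 in 4L arrays, a log2 fold of 1.48 (SE 0.36, adjusted p = 0.0052). Adgre1, which encodes the F4/80 antigen, read 2016 to 2649 in WT and 1598 to 2484 in 4L arrays and was not called, at -0.24 on the log2 scale (SE 0.15, adjusted p = 0.28). Lyz2 and Marco were each not called without any 1 of 7 arrays, and Aif1 without WT replicate 2 or 3. The 7 calls were 3 without the 12 week arrays of 4L mice and 5 to 8 with 1 array left out. With spike-in scaling 0 were higher and 4 lower, and the median was 0.07.

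Genes of lipid-laden macrophages behaved otherwise. Of 19 measured, 1 was called higher and 1 lower against WT, a share near the 9.52% of all genes, with a median log2 fold of 0.21. Called lower than in 9V/null lung were 7, where 0.533% of all genes were, with a median of -1.02. Against the same WT arrays, 11 of the 19 were higher in 9V/null lung, where 4.12% of all genes were. Gpnmb, a glycoprotein of macrophages under lysosomal stress, read 1964, 2692, 2488 and 2386 in WT, 2445, 2777, 1850, 1852, 1971 and 1869 in 4L and 10642 to 23667 in 9V/null arrays. Ctsk, the protease cathepsin K, read 1806 to 1953 in WT, 1612 to 2104 in 4L and 7839 to 14483 in 9V/null arrays. Mmp12, the macrophage elastase, read 167 to 295, 177 to 467 and 4735 to 10122. All 3 genes overlapped WT in 4L mice and had log2 folds of -2.90, -2.51 and -4.61 against 9V/null lung (adjusted p = 1.9e-05, 5.6e-05 and 1.2e-07).

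Trem2, a lipid-sensing receptor of macrophages, was the member called higher. It read 78, 65, 151 and 129 in WT, 499, 487, 527, 497, 594 and 360 in 4L and 773 to 2483 in 9V/null arrays, a log2 fold of 2.29 (SE 0.41, adjusted p = 0.00037). Another Trem2 probe set stood at -0.48 and was not called. Acp5, Atp6v0d2 and Fabp5, which encode an acid phosphatase, a proton pump subunit and a fatty acid binding protein, were not called against WT and fell against 9V/null lung, with log2 folds of -1.35, -1.92 and -1.03.

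**Figure D3:**
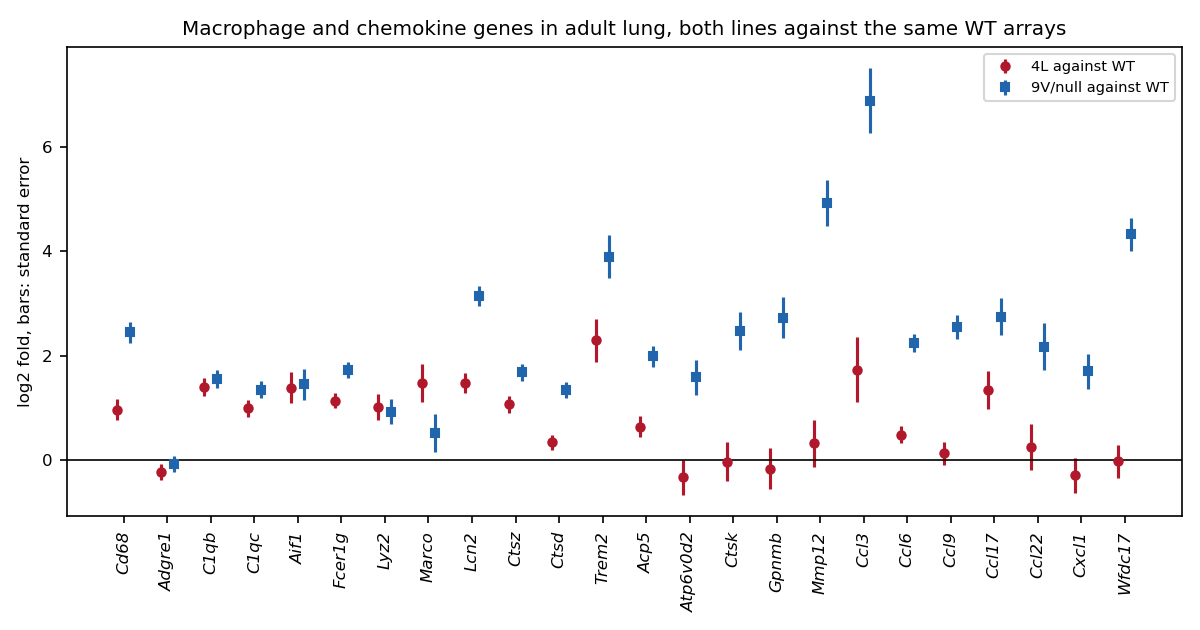
Log2 fold against WT lung of macrophage, lysosomal and chemokine genes in adult 4L lung (red circles) and adult 9V/null lung (blue squares), with bars of 1 SE, both against the same 4 WT arrays. C1qb and Aif1 have like folds in both lines, whereas Gpnmb, at -0.17 in 4L and 2.72 in 9V/null lung, Ctsk and Mmp12 lie near 0 in 4L lung alone.

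Of 42 lysosomal genes, 1 was called higher and 3 lower against WT, a share near the 9.52% of all genes, with a median log2 fold of 0.22. Called lower than in 9V/null lung were 6 of them, where 0.533% of all genes were. Ctsz, which encodes the protease cathepsin Z, read 14893 to 21868 in WT and 25015 to 52801 in 4L arrays, a log2 fold of 1.06 (SE 0.17, adjusted p = 0.0001). Lipa, the acid lipase of the lysosome, read 6792, 7697, 7333 and 7930 in WT, 3515, 3409, 4558, 5337, 3391 and 3686 in 4L and 5671 to 9896 in 9V/null arrays. It fell by 0.92 on the log2 scale against WT (SE 0.14, adjusted p = 5.7e-05) and by 1.02 against 9V/null lung, though of its other probe sets 1 was called lower and 1 stood at 0.52. Ppt1, a thioesterase that removes palmitate from proteins, read 7989 to 8923 in WT and 3756 to 4811 in 4L arrays, and its 4 other probe sets stood at 0.14 to 0.90, none of them called. Idua, the lysosomal α-L-iduronidase, fell by 0.90 on the log2 scale. Ctsd, the protease cathepsin D, read 19492 to 23392 in WT, 23667 to 30817 in 4L and 42269 to 72346 in 9V/null arrays. Centred on the medians, the lysosomal calls were 5 higher and 0 lower, and with spike-in scaling 0 higher and 8 lower.

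Of 43 genes that make and break down glucosylceramide and its relatives, 2 were called higher and 3 lower, a share near the 9.52% of all genes, with a median log2 fold of 0.11. B4galnt1, the synthase of the gangliosides GM2 and GD2, read 1753, 1840, 1748 and 1558 in WT and 5735, 7607, 4485, 5044, 4045 and 3680 in 4L arrays, a log2 fold of 1.52 (SE 0.20, adjusted p = 1.4e-05). Another B4galnt1 probe set stood at 0.26 and was not called (adjusted p = 0.78). S1pr5, a receptor of sphingosine 1-phosphate, read 15 to 41 in WT and 84 to 240 in 4L arrays. Sgms1, which makes sphingomyelin from ceramide, fell by 1.17 on the log2 scale, Sgpp1, a phosphatase of sphingosine 1-phosphate, by 1.06, and Acer3, an alkaline ceramidase, by 0.85. Without the second 28 week array of 4L mice the list had 3 higher and 5 lower. Acer3 lost its call without any 1 of 7 arrays, and another of its probe sets was called the other way at 1.76. Gla, the lysosomal α-galactosidase A, read 555 to 777 in WT, 523 to 1125 in 4L and 1730 to 2669 in 9V/null arrays, and with 1 probe set for each gene was the one list member called between the lines, where it fell by 1.22 on the log2 scale. Galc, the galactosylceramidase, named after its values were seen, was not called with its main probe set at a log2 fold of -0.08 against WT. Another Galc probe set was called at 3.83 against WT (SE 0.41, adjusted p = 1.6e-06) and at 3.62 against 9V/null lung (adjusted p = 1.6e-06).

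The study chose 2 lists of genes regulated by interferon-γ and interleukin-4 on these same samples, so counts over them are no independent evidence. Of the 12 measured genes of the interferon-γ list, 0 were called in 4L lung against WT by limma (4 had an unadjusted p under 0.05, 2 in each direction, where 36.8% of all genes had one), with a median log2 fold of -0.46 and single folds of -1.17 (Msr1) to 1.73 (Ccl3), and 5 fell against 9V/null lung. Ccl3, the chemokine MIP-1α, read 48, 11, 36 and 25 in WT, 227, 24, 134, 68, 175 and 91 in 4L and 2232 to 4776 in 9V/null arrays. Its log2 fold of 1.73 against WT was not called (SE 0.62, adjusted p = 0.049), and it fell by 5.15 on the log2 scale against 9V/null lung (SE 0.56, adjusted p = 3.6e-06). Ccl6, Ccl9 and Cxcl1, chemokines for monocytes and neutrophils, and Msr1, a scavenger receptor, fell against 9V/null lung, with log2 folds of -1.76, -2.42, -1.99 and -2.02. The members not called in either comparison were Ifng, Ccl2, Cd44, Cxcl12, Il6, Nos2 and Tnf.

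Of the 11 genes of the interleukin-4 list, 1 was called higher against WT and 4 were lower than in 9V/null lung. Ccl17, a chemokine for helper T cells, read 335 to 523 in WT, 756 to 1575 in 4L and 1844 to 4954 in 9V/null arrays, a log2 fold of 1.34 against WT (SE 0.36, adjusted p = 0.0094). It lost the call with any 1 of the 10 arrays left out, at log2 folds of 1.20 to 1.41. Ccl22, Il1rn, Mmp12 and Mmp19 were the members called between the lines, and their 4L arrays overlapped WT. Ighm, the immunoglobulin μ heavy chain of B cells, read 1661 to 14107 in WT and 8559 to 53828 in 4L arrays and was not called, and Il4, Arg2, Cd163, Mmp9 and Retnla had log2 folds of -0.43 to 0.93. Over all 34 chemokine ligands, 2 were called higher and 1 lower against WT and 7 lower than in 9V/null lung, with medians of 0.19 and -0.75. Among all genes 9.52% were called against WT and 0.533% were called lower than in 9V/null lung. The 3 called against WT were Ccl17, Ccl5, a ligand for T cells at 1.28, and Ccl27a, an epithelial chemokine that fell by 1.73 on the log2 scale. Leaving out 1 array took the call from Ccl5 for any of 8 arrays and from Ccl27a for the second 18 week array of 4L mice or WT replicate 4.

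Further transcripts that were high in 9V/null lung did not all stay at the WT level in 4L lung. Wfdc17, a whey acidic protein of activated macrophages, read 982 to 1426 in WT, 899 to 1554 in 4L and 8903 to 51388 in 9V/null arrays. Lcn2, an iron-scavenging protein of neutrophils and epithelia, read 5285 to 7150 in WT, 12963 to 20061 in 4L and 42348 to 69127 in 9V/null arrays. Lcn2 was thus raised in 4L lung, with a log2 fold of 1.48 (SE 0.20, adjusted p = 1.7e-05), whereas Wfdc17 was not called. Ang, another angiogenin, read 7830 to 10419 in WT and 4976 to 15667 in 4L arrays, highest in the first 28 week array. The 9V/null arrays read 120 to 390 at 12 and 18 weeks but 6097 and 5373 at 28 weeks, within the 4L range. The log2 difference between the lines over the 3 ages was 3.73. Of the other Ang probe sets 1 was called at 1.16 and 1 stood at -0.25 with no call (adjusted p = 0.56).

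MHC class II molecules present peptides to helper T cells on macrophages, dendritic cells and B cells, and their genes share promoter elements through which the CIITA and RFX proteins act. Of 10 genes of the class II list with a promoter in the RefSeq table (GRCm38.p6, 250 bases before to 50 after the start), 3 held the letters CTGATTGG, a form of the Y box that NF-Y binds, on either strand. The share was 4.10% over all 32851 promoters. The promoters of H2-Eb1 and H2-Aa are shown. H2-Eb1 is the class II β chain called higher than in both other groups, and H2-Aa the α chain of the other class II molecule. Their motifs begin at -62 and -51 from the start. The remaining match, at -46 in H2-Oa, is not shown. The promoters shown lie at chr17:34305617-34305916 (plus strand) and chr17:34287774-34288073 (minus strand), and capitals mark the motif.
H2-Eb1: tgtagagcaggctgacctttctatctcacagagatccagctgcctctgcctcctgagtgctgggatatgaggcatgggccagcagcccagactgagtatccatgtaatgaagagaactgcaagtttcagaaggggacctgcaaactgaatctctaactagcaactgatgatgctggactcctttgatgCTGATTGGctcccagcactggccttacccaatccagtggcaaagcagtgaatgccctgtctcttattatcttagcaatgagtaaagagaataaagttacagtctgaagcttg
H2-Aa: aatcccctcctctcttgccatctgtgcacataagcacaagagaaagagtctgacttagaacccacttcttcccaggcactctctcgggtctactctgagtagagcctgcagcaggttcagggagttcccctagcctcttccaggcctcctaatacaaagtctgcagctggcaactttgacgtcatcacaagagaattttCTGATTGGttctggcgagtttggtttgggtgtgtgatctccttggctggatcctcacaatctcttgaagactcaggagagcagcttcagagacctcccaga
The match is a description of the letters and not of a bound site.

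Of 15 class II genes, 5 were called higher and 0 lower in 4L lung, with a median log2 fold of 0.60, which turned to -0.08 with spike-in scaling (2 higher and 1 lower). H2-Eb1 read 8774, 8735, 9318 and 8365 in WT, 34566, 36247, 26777, 31965, 39468 and 37013 in 4L and 14887 to 20975 in 9V/null arrays. Its log2 fold was 1.96 against WT (SE 0.15, adjusted p = 2.7e-08) and 0.92 against 9V/null lung (SE 0.14, adjusted p = 0.00029), and the 3 groups did not overlap. H2-Ab1, the class II β chain of the other molecule, read 9796 to 10964 in WT, 16525 to 27379 in 4L and 19266 to 25914 in 9V/null arrays. H2-DMa and H2-DMb2, subunits of the chaperone that loads peptides, had log2 folds of 1.33 and 1.63, and Rfxank, a subunit of the RFX factor, of 1.05 with no call without WT replicate 1 or 2. Another probe set of H2-DMa stood at -0.12.

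H2-Ea, the α chain partner of H2-Eb1, read 294, 167, 265 and 118 in WT, 56, 47, 152, 65, 124 and 86 in 4L and 416 to 839 in 9V/null arrays, and fell by 2.85 on the log2 scale against 9V/null lung (SE 0.46, adjusted p = 0.00074). Against WT it was not called at -1.30 (adjusted p = 0.072), whereas another of its probe sets was called lower at -3.37 and a further one stood at 1.20 with no call (adjusted p = 0.2). H2-Aa read 17886 to 19600 in WT and 17254 to 41590 in 4L arrays, where the 2 arrays of 18 weeks lay within the WT range or below it. It was not called at 0.60, though 2 of its other probe sets were, at 1.23 and 2.10.

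**Figure D4:**
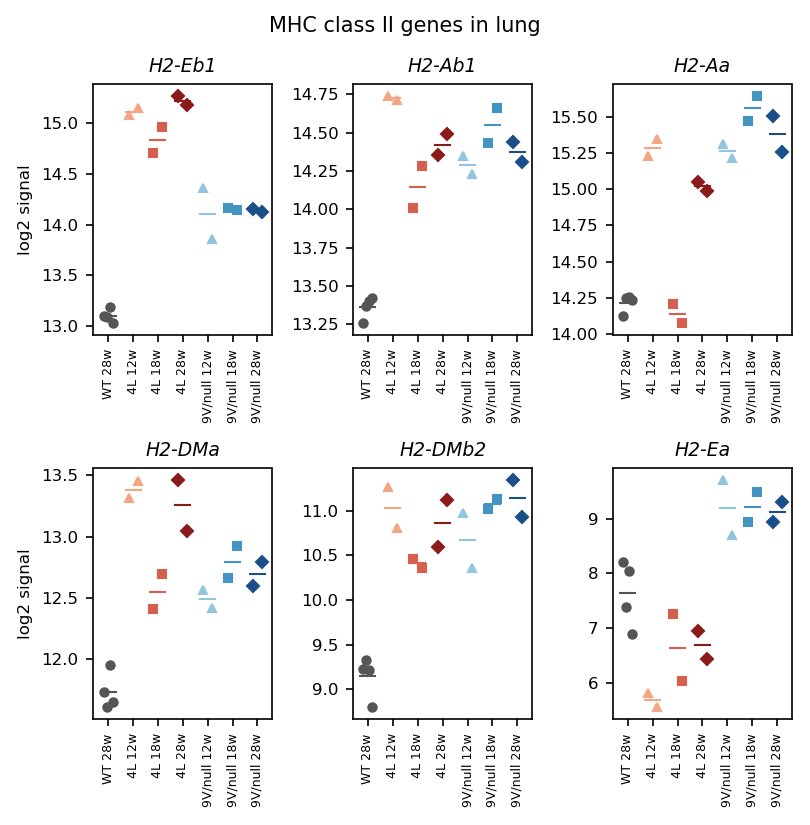
Signal (log2, floored at 16) of MHC class II genes in WT, 4L and 9V/null lung, each point an array and each line the mean of a genotype at one age. H2-Eb1 is highest in 4L lung, whereas the means of H2-Ea are lowest there.

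MHC class I molecules present peptides from inside the cell to cytotoxic T cells. Of 17 genes of the molecules and their loading, 7 were called higher and 2 lower, with a median log2 fold of 0.54, which turned to -0.13 with spike-in scaling (0 higher and 2 lower). H2-K1, a class I heavy chain, read 34552, 30611, 32412 and 33598 in WT and 82222, 83500, 68342, 79648, 82170 and 86852 in 4L arrays, a log2 fold of 1.29 (SE 0.12, adjusted p = 3.3e-07). Tap1, a subunit of the peptide transporter, had a log2 fold of 1.30, and its 2 other probe sets stood at -0.15 and -1.01. The immunoproteasome and its activator were represented by Psmb8, Psmb9, Psmb10 and Psme1 with log2 folds of 0.86 to 1.09, and B2m, the light chain, had 0.89. Another probe set of Psmb8 stood at -0.40. H2-D1, another class I heavy chain, read 7041 to 7972 in WT, 2689 to 4218 in 4L and 6788 to 9833 in 9V/null arrays, and fell by 1.12 on the log2 scale. Of its 8 other probe sets, 4 stood at 0.43 to 0.62 and none was called. Class I genes are near-identical copies that can share probe signal, and the H2-K1 probe set is of a type that can also bind relatives. The rise of H2-K1 and the falls of H2-D1 and of H2-Q2, by 1.39 on the log2 scale, are therefore uncertain. Psmb9 lost its call without the first 28 week array of 4L mice or WT replicate 2, 3 or 4, Psmb10 without any of 5 arrays, and B2m without WT replicate 3.

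The airway secretory cells gave the group with the highest median. Of 18 club and goblet cell markers, 8 were called higher and 0 lower, and the median log2 fold was 1.01. All 6 4L arrays lay above all WT arrays in 14 of the 18, where they did so in 13.7% of all genes. Reg3g, a secreted lectin that kills bacteria, read 1521, 2068, 2383 and 1032 in WT, 14543, 10018, 7837, 6096, 6398 and 6474 in 4L and 514 to 3741 in 9V/null arrays. Its log2 fold was 2.29 against WT (SE 0.29, adjusted p = 8.4e-06) and 2.34 against 9V/null lung (SE 0.26, adjusted p = 4e-06). With 1 probe set for each gene, Reg3g was the one member called between the lines. Bpifb1, a secreted protein of airway glands, read 4976 to 8365 in WT, 45054 and 37410 in 4L mice at 12 weeks, 27892 and 24223 at 18 weeks and 14552 and 20334 at 28 weeks. Another Bpifb1 probe set, of a type that can also bind relatives, was called at a log2 fold of 2.24 against WT. It was also called at 2.25 against 9V/null lung (adjusted p = 0.0011). Chad, a matrix protein, read 1850 to 2460 in WT, 17194 and 10679 at 12 weeks, 8827 and 7542 at 18 weeks and 5365 and 3818 at 28 weeks. The 4L arrays of both genes were above WT at each age and lowest at 28 weeks, where neither was called against WT, and the difference between 28 and 12 weeks was not called.

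Scgb3a1 and Scgb3a2, secretoglobins of the airways, had log2 folds of 1.79 (SE 0.36, adjusted p = 0.00086) and 1.05 (SE 0.24, adjusted p = 0.0034). Cyp2f2, the cytochrome P450 that marks club cells, read 50204 to 57554 in WT and 96387 to 158466 in 4L arrays, a log2 fold of 1.25 (SE 0.12, adjusted p = 6.5e-07). Tff2, a trefoil factor of mucous cells, read 305 to 1067 in WT and 1111 to 2970 in 4L arrays, and Aldh1a1, a retinal dehydrogenase, had a log2 fold of 0.91. Tff2 lost its call without any 1 of 9 arrays and Scgb3a2 without any 1 of 4. Scgb1a1 was not called (SE 0.86 on the log2 scale, adjusted p = 0.39), although its arrays did not overlap. The SE draws on the spread of all 39 arrays, those of liver included. In 9V/null lung the list had 2 members called higher against WT, with a median of 0.37. The 8 calls were 4 without the 12 week arrays, 4 with the replicate number as a block, 5 without WT replicate 2 or WT replicate 4, 5 after quantile normalization and 2 with spike-in scaling, where the median stayed above 0 at 0.33. The summed signal of the 18 markers was 312250 to 347335 in WT, 603809 to 849491 in 4L and 398275 to 599951 in 9V/null arrays.

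**Figure D5:**
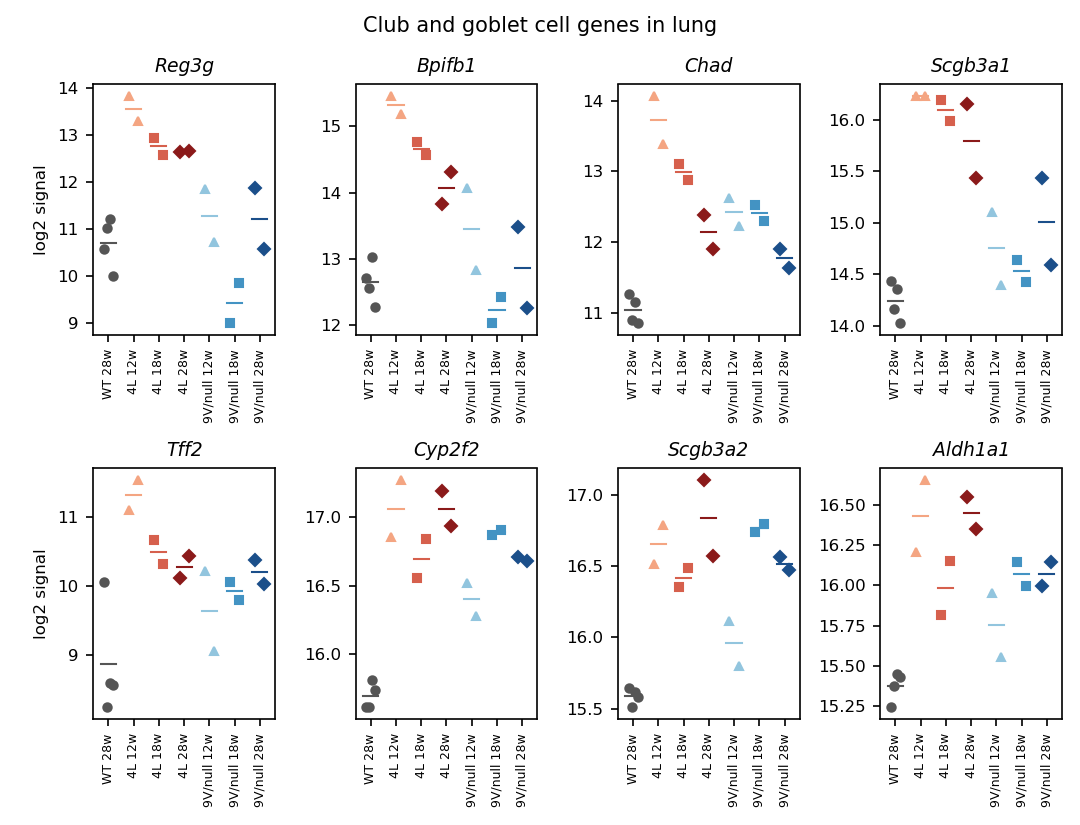
Signal (log2, floored at 16) of club and goblet cell genes in WT, 4L and 9V/null lung, each point an array and each line the mean of a genotype at one age. Reg3g, Bpifb1 and Scgb3a1 lie above WT on all 6 4L arrays.

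The counts for other cell types of the lung are read beside the 9.52% of all genes that were called. Of 20 type II epithelium and surfactant genes, 0 were called by limma over all arrays (8 had an unadjusted p under 0.05, as had 6692 of all 18193 genes, or 36.8%). All 4L arrays lay above WT in 9 of the 20, where they did so in 13.7% of all genes, and the median log2 fold was 0.54. With the 20 lung arrays fitted alone, 5 of them were called higher. Sftpc had a log2 fold of 1.40 with an adjusted p of 0.014. Of 15 type I epithelium genes, Ager, a receptor on the basal membrane, was called higher at 1.18, and Vegfa, a growth factor for endothelium, lower at -1.15, where another Vegfa probe set stood at 0.63. Of 21 genes of ciliated cells, Tekt1, a protein of cilia, was called higher at 1.41 and Ccdc39, an assembly factor of ciliary arms, lower at -1.33, with other Ccdc39 probe sets at 0.26 and 1.05. Tekt1 lost its call without any 1 of 9 arrays and Ccdc39 without WT replicate 1. Of 23 general endothelial genes, 0 were called by limma (10 had an unadjusted p under 0.05, beside 36.8% of all genes), and the median was 0.28. The medians of the epithelial lists turned negative with spike-in scaling, at -0.13 for type II and -0.05 for ciliated cells.

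Of 18 genes of B and plasma cells, 3 were called higher, and 1 without any 1 of 8 arrays. They were Cd79b, a chain of the B cell receptor, at a log2 fold of 1.22, Cxcr5, the receptor that guides B cells into follicles, at 1.51, and Ltb, which encodes lymphotoxin β. Ltb read 918, 1036, 1144 and 807 in WT and 3147, 2773, 2735, 1920, 2624 and 1464 in 4L arrays, a log2 fold of 1.29 (SE 0.32, adjusted p = 0.0057). Of 17 T cell genes, 1 was called higher, near the 5.07% of all genes, and it was Cd3e, a chain of the T cell receptor complex, which read 196 to 648 in WT and 654 to 1456 in 4L arrays. Ccr7, the receptor for entry into lymph nodes, had a log2 fold of 1.69 (SE 0.35, adjusted p = 0.0012). It belongs to neither list but to that of 14 dendritic cell genes, of which 3 were called higher and 2 lower. The median of that list was 0.31. Of 37 interferon-stimulated genes 2 were called higher, and of 14 natural killer cell and 13 neutrophil genes 1 each. None of Cd79b, Cxcr5, Ltb, Cd3e and Ccr7 was called between the lines, and spike-in scaling left 0 B cell and 0 T cell genes higher.

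Hepatocyte genes were measured as a marker list for liver. Of 16, Hp, which is haptoglobin and is also made by lung, was called higher at 1.17, and Cyp3a11, a liver cytochrome P450, lower at -2.42 with no call without any 1 of 7 arrays. The median was -1.07 over the 3 ages and -0.10 at 28 weeks. Fgg, the γ chain of fibrinogen, read 850 to 1793 in WT, 1637 in the first 28 week array of 4L mice, 242 to 609 in the other 5 4L arrays and 18 to 282 in 9V/null arrays. Fabp1, the fatty acid binding protein of liver, read 11143 in that array and 1441 to 3329 in the other 4L arrays. Both were called higher in 4L than in 9V/null lung. Among the 4L arrays the first 28 week array was highest for both genes.

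Antioxidant and glutathione genes rose in 9 of 29 members with 0 lower, and the median log2 fold was 0.57. Gsto1, a glutathione transferase of the omega class, read 7519, 7925, 9524 and 7517 in WT, 43097, 46110, 25798, 30027, 46258 and 37181 in 4L and 10650 to 18546 in 9V/null arrays. Its log2 fold was 2.20 against WT (SE 0.15, adjusted p = 3.4e-09) and 1.31 against 9V/null lung (SE 0.14, adjusted p = 1.7e-06), and the 3 groups did not overlap. Gstm1, Gstt1, Gstt2, Gstm2 and Gsta4, other glutathione transferases, and Gpx1, a glutathione peroxidase, had log2 folds of 0.98 to 1.30 and were not called between the lines. Another Gstm1 probe set stood at -0.10. Noxo1, an organizer of a superoxide-forming oxidase, read 84 to 144 in WT, 98 to 413 in 4L and 1392 to 3281 in 9V/null arrays. The list kept 4 calls after quantile normalization and 1 with spike-in scaling, where its median was -0.10.

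Of 30 oxidative phosphorylation genes, 7 were called higher (4 without the first and 11 without the second 28 week array of 4L mice), among them Cox5b, a subunit of cytochrome c oxidase, with a log2 fold of 1.39 (SE 0.23, adjusted p = 0.00013), and Uqcrb, a subunit of complex III, with 1.08. Atp5a1 was also among them at 1.02, although another of its probe sets was called lower at -1.02. Of 21 ribosomal protein genes, 10 were called higher, led by Rps15 at 1.43 and Rpl19 at 1.21, and Rps24 lower at -1.89, although 4 of its 5 other probe sets stood at 0.26 to 0.62 and it was not called without WT replicate 1. Quantile normalization left 3 oxidative phosphorylation genes and 0 ribosomal genes higher, and spike-in scaling left 0 of either. Among the tenth of all genes with the highest signal, 13.8% were called higher and 2.14% lower, and their median log2 fold was 0.27 in 4L and 0.29 in 9V/null lung against the shared WT arrays. Between the lines their median was -0.01. Actb, the β-actin gene, is also bright, and its 3′ control probe set read 57192 to 65130 in WT and 104782 to 172558 in 4L arrays. The part of signal brightness in these groups was not tested.

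Of 32 RNA splicing factors, 7 were called lower and 0 higher, though their median log2 fold was -0.15 and turned to 0.05 when the arrays were centred on their medians, with 3 calls left. Srsf10, a splicing regulator, read 4304, 5471, 4037 and 4886 in WT and 1244, 1239, 1659, 1238, 1558 and 1396 in 4L arrays, and fell by 1.75 on the log2 scale (SE 0.24, adjusted p = 2.7e-05). Of its 3 other probe sets 1 was called lower. In the circadian clock list, 3 of 20 genes were called lower and the median was 0.25. Clock, a core activator of the clock, read 5055 to 6120 in WT and 855 to 2915 in 4L arrays, Rora, a nuclear receptor of the clock, fell by 1.34 on the log2 scale, and Cry1, a repressor, by 1.20. The list had 1 call without WT replicate 1 or 2. Another Rora probe set stood at 1.56. Of 34 genes of Wnt and related signalling, 2 were called higher and 3 lower, beside the 9.52% of all genes. Wif1, a secreted inhibitor of Wnt signalling, read 1599 to 2129 in WT and 178 to 568 in 4L arrays and fell by 2.61 on the log2 scale (SE 0.46, adjusted p = 0.00029).

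Against the WT arrays of 28 weeks, 4880 probe sets were called at 12 weeks (10.8%), 1043 at 18 weeks (2.32%) and 2439 at 28 weeks, and 216 of the genes called over the 3 ages were called at each of them. The ages differ by 2 arrays each, and these counts do not test a difference between ages. Between 28 and 12 weeks within 4L mice, 37 probe sets were called higher (0.0822%) and 5 lower (0.0111%). Without the first 28 week array 1 remained and without the second 12 week array there were 128, so the count depends on single arrays. G6pc, the glucose 6-phosphatase of liver and kidney, read 53, 12, 131, 54, 651 and 360 in 4L arrays in order of age, a log2 fold of 4.06 (SE 0.62, adjusted p = 0.0026). Slc27a5, a bile acid ligase of liver, read 32, 45, 238, 76, 887 and 262, and Hells, a chromatin remodelling helicase of dividing cells, read 30, 50, 249, 274, 576 and 484. The first 28 week array, which also held the highest Alb signal, was the highest for all 3, and the part of liver RNA in these values was not tested.

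Dct, a melanin pathway enzyme, and 5330439K02Rik rose by log2 folds of 3.83 and 3.67 between 12 and 28 weeks. Clcn4, a chloride and proton exchanger of endosomes, read 4341, 4976, 2959, 2920, 1055 and 1510 in order of age and fell by 1.88 on the log2 scale (SE 0.29, adjusted p = 0.0026). 1700006F04Rik read 70 and 63 at 12 weeks and 4 to 19 later, so its fold of -1.92 depends on the floor. Rec8, Gdpd3, H2-Eb1 and Gsto1, picked as examples, were also called against WT at 28 weeks alone. Their log2 folds there were 4.88, -4.42, 2.12 and 2.36. Over all probe sets, 193 were called at 28 weeks without the first 28 week array of 4L mice.

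In 4L liver, set against WT liver, 947 genes (5.21%) were called. Of the 54 genes that were called against both WT and 9V/null lung in one direction, 12 were called in the same direction in 4L liver and 1, Fam47e, in the other. Gdpd3 had a log2 fold of -4.90 in liver (adjusted p = 1.9e-09), Adi1 of 4.40, Ifi202b of -3.73, Tmem87a of -3.51, Pik3ap1 of -2.49, H2-Eb1 of 1.64 and Gsto1 of 0.87. The labels do not say whether the same mice gave lung and liver, and the strain mixtures are those of the lung groups. A test of the lung effect minus the liver effect, which treats lung and liver arrays as independent, called 56 genes (0.308%). Gja5 had a log2 fold of 0.14 in liver and a difference of 4.04 (adjusted p = 0.00014), Ang3 of -0.11 and a difference of -5.93 (adjusted p = 0.00013), and Ear3 of 0.75 and a difference of -3.85 (adjusted p = 3.2e-06). Ltb differed the other way, with a log2 fold of 4.05 in liver and a difference of -2.75 (adjusted p = 0.0046). Rec8 and Reg3g, at 1.30 and 0.26 in liver, were not called there, and the difference between the tissues was not called for either.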

How the data were processed

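Expression was measured in lung and liver RNA pooled from 3 mice for each array, so p-values measure the spread between pools. That spread is shared over all 39 arrays, so the spread of the liver arrays also enters the lung p-values. The deposited values are linear signal intensities of 45101 probe sets, which the authors made with the GCOS software and scaled to a common trimmed mean. After 64 control probe sets were set aside, 45037 were tested. Signals under 16 were set to 16, and log2 values of all 39 arrays were fitted as 18 group means with limma 3.58.1 in R 4.3.3 (21 residual and 2.21 prior degrees of freedom). The study's model also held a subject term, which was left out here because the labels give no subject. The adult effect is the mean of the 3 ages minus WT. P-values were adjusted by the Benjamini-Hochberg method over all probe sets of a comparison. Precision is limited by how few arrays there are.

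Through the platform annotation 34945 probe sets had 1 gene symbol, 932 several and 9160 none. Each of 18193 genes was represented by its probe set with the highest mean log2 signal in lung. Only probe sets ending in _x_at, which can also bind relatives, were avoided where another existed. Those ending in _s_at were not avoided, among them the probe sets used for Ang, Ifi202b, Trem2, Lipa and Ager. The genes named are Cd68, Adgre1 and the study's list members, the 12 highest and 12 lowest called genes without overlap, up to 6 called members of a list, and the 5 highest and lowest between the lines and between the ages, shortened where a list is summarised. Other genes, such as Galc, Gla, Sftpc, H2-Aa, H2-Ea, Fgg, Fabp1 and Ctsk, fall outside this rule and were named to describe a list or after their values were seen, so that some lists have more than 6 genes named. The genes, the 53 lists and the comparisons were chosen with earlier results of these data known. Alternatives changed the floor, the scaling, the filter, the arrays fitted, the moderation, the threshold and the probe sets, left out each array in turn, and used the replicate number as a block (statmod 1.5.0 for array weights). Scaling to the spike-ins, leaving out the 12 week 4L arrays and a covariate of Y-linked signal were added after the data were seen. The method was tested on simulated data. Figures were drawn with matplotlib 3.10.9.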

Additional observations from a re-analysis of the deposited data

Results flagged for a closer look

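Of 302 groups of arrays checked for an array far from the rest, 27 had one, where chance gives about 1 in 20. In the first 28 week array of 4L mice, which also held the highest albumin signal, Lpcat4 read 114.6 and Mmp19 297.7, below the other 5, and Npy 3000.9, Ccl6 27862.9, Uqcrb 145580.2 and Tnf 244.1, above them. In the second, Scgb3a1 read 44165.1, lowest of the 6. At 18 weeks H2-K1 read 68342.2 in the first 4L array, and Clec12b 141.3 and Gla 523 in the second. At 12 weeks Ifi202b read 94.2 in the first 4L array, and Atp6v0d2 4396 and Msr1 22.2 in the second.

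Among the WT arrays, replicate 1 read 47.3 for Klk1, 882 for Ifi202b, 5252.6 for Psmb9, 1039.8 for Rps24 and 17.4 for Il6. Replicate 2 read 233.2 for Hells, and replicate 3 read 147.6 for 3300002P13Rik and 7499.4 for Gstt1. Replicate 4 read 75.9 for 5830444B04Rik, 157.3 for Psca, 40044.3 for Fabp5, 554.7 for Gla, 470.9 for Cxcl5 and 648.5 for Cd3e.

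The 4L effect differed between lung and liver by limma, as lung minus liver on the log2 scale, by 4.04 for Gja5 (adjusted p = 0.00014), 3.40 for A4galt (0.0022), -5.93 for Ang3 (0.00013), -2.93 for Ifi204 (0.0054), -3.64 for Psca (0.0005) and -3.85 for Ear3 (3.2e-06). It differed by 1.34 for Gsto1 (0.0038), -2.75 for Ltb (0.0046) and -1.41 for Cd44 (0.009). Between 28 and 12 weeks it differed by 4.06 for G6pc (adjusted p = 0.0026), 3.83 for Dct (0.0016), 3.76 for Hells (0.0016), 3.67 for Slc27a5 (0.0061), 3.67 for 5330439K02Rik (0.0074), -1.92 for 1700006F04Rik (0.0016) and -1.88 for Clcn4 (0.0026), and without the first 28 week array 1 probe set was called between the ages.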

How the results depend on the processing

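The counts of called probe sets moved with the settings. Over the 3 ages the 4009 calls became 1892 with the 10 arrays fitted as 2 groups, 6135 with array weights, 9937 at an adjusted p of 0.05 with no fold, 1361 at a fold of 3, 10066 with spike-in scaling and 2151 without the 12 week 4L arrays, and 2735 to 4516 with 1 array left out. At 28 weeks the 2439 calls became 3707 with a floor of 64, 1555 with median centring, 1305 with the 10 arrays in 4 groups, 1572 with array weights, 6196 at an adjusted p of 0.05 with no fold, 849 at a fold of 3 and 4657 with spike-in scaling, and 193 to 3079 with 1 array left out. Between the lines the 271 calls became 412 with the 20 lung arrays alone, 625 at an adjusted p of 0.05 with no fold and 148 at a fold of 3, and 205 to 253 with 1 array left out. Between 28 and 12 weeks the 42 calls became 114 with a floor of 64, 24 with median centring, 68 with the filter on mean signal, 95 with the lung arrays alone, 150 with the 10 arrays in 4 groups, 102 with trend and robust fitting, 0 with array weights, 309 at an adjusted p of 0.05 with no fold and 71 with spike-in scaling, and 1 to 128 with 1 array left out. Apart from the smaller sets of arrays and the changed thresholds, the cause was not tested.

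Replicate numbers did not pair the lung arrays of adult 4L and WT mice, whose deviations correlated at 0.01 to 0.04. Pairing of lung with liver arrays was not checked. With the replicate number as a block the calls were 2118 over the 3 ages, 839 at 28 weeks, 222 between the lines and 21 between the ages.

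Other probe sets of a gene turned the direction for Acer3 (1.76), Adi1 (-1.06), Ccdc39 (0.26 and 1.05), Dpysl4 (-1.09), Gstm1 (-0.10), H2-D1 (0.46, 0.62, 0.43 and 0.60), H2-DMa (-0.12), Klk1 (-0.48), Lipa (0.52), Pik3ap1 (1.02), Ppt1 (0.19, 0.90, 0.39 and 0.14), Psmb8 (-0.40), Rora (1.56), Rps24 (0.36, 0.61, 0.62 and 0.26), Tap1 (-0.15 and -1.01), Trem2 (-0.48) and Vegfa (0.63). Atp5a1 was turned too (-1.02) but was not among the genes checked under the other alternatives. Another 41 probe sets of the genes checked kept the direction of a called gene but were not called themselves. Against WT no other alternative turned a called gene among the rest of those named. Of the 1025 called genes with over 1 probe set, 308 had another called the same way and 25 had another called the other way. Between the lines, other probe sets turned the direction for Ang (-0.25), Adi1 (-0.66), Gla (0.04), H2-D1 (0.47), H2-Ea (0.21), Lipa (0.43) and Ppt1 (0.43 and 0.14). Limits are the small number of pools, the strain mixtures, WT mice of 1 age, unlabelled sex and the brighter spike-ins of the 4L arrays.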
